A study of Mus musculus with 9 samples.

Results

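Transcripts of 10 genes of the hypoxia response were followed in RNA sequencing of mouse pancreatic islets, which hold the beta cells that secrete insulin and other endocrine cells. The 10 were Hif1a and Epas1, which encode oxygen-regulated transcription factor subunits, the oxygen sensor genes Egln1 and Egln3, and the target genes Vegfa, Adm, Pdk1, Bnip3, Ndrg1 and Ankrd37. They were chosen by symbol, all 10 had a row among the 52459 genes of the count table, and 9 of them were among the 16826 genes with enough counts to test. Adm, with 1 to 6 counts per library, was the one left out. The groups were db/db mice, homozygous for a mutant allele of the leptin receptor gene Lepr, db/+ heterozygotes, and wild type (WT) mice, with 3 libraries each from mice of 12 weeks. All 9 libraries carried the same strain label, on the BKS background. The db allele is carried in the germ line and affects the whole animal. Homozygotes overeat and become obese and diabetic, so the comparison covers islets in diabetic animals rather than loss of Lepr within the islet alone.

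Cells sense oxygen through hypoxia-inducible factors (HIF), each made of an unstable alpha subunit, such as those encoded by Hif1a and Epas1, and the stable partner encoded by Arnt. In the presence of oxygen, prolyl hydroxylases of the Egln family mark the alpha subunit, and the ligase subunit encoded by Vhl then directs it to degradation. When oxygen is short the alpha subunit persists, binds DNA with its partner and raises genes of blood vessel growth, glycolysis and mitochondrial turnover. Because this control acts mainly on protein, the amount of Hif1a transcript is not a measure of HIF activity. Islets are densely supplied with capillaries, beta cells depend on oxidative metabolism to sense glucose, and VEGF-A made by endocrine cells is needed to keep the islet vessels.

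HIF binds a short DNA core spelled ACGTG or GCGTG. Promoter sequences from RefSeq (GRCm38.p6, the assembly also called mm10), running from 250 bases before to 50 bases after a start site, were found for 8 of the 10 genes. The windows of Pdk1, Egln3 and Vegfa are shown because these genes had the largest fold changes between db/db and WT, and those of Bnip3 and Ankrd37 because they held the most copies of the cores without a change that passed the test. Capitals mark each core, searched on both strands, and a core read from the opposite strand appears as CACGT or CACGC. The windows lie at chr2:71872974-71873273 (plus strand) for Pdk1, chr12:54203825-54204124 (minus strand) for Egln3, chr17:46032328-46032627 (minus strand) for Vegfa, chr7:138909457-138909756 (minus strand) for Bnip3 and chr8:45999801-46000100 (minus strand) for Ankrd37.
Pdk1: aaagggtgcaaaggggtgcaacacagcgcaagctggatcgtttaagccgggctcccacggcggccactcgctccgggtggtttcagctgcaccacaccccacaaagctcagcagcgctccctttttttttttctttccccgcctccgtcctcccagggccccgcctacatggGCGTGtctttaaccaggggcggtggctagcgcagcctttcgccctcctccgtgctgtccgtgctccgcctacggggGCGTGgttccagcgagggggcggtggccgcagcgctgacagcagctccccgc
Egln3: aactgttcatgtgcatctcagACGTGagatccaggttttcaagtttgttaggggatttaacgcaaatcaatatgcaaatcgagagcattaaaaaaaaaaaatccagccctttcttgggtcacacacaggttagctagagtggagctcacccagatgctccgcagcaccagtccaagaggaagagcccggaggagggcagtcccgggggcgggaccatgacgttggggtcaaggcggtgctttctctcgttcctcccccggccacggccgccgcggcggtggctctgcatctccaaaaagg
Vegfa: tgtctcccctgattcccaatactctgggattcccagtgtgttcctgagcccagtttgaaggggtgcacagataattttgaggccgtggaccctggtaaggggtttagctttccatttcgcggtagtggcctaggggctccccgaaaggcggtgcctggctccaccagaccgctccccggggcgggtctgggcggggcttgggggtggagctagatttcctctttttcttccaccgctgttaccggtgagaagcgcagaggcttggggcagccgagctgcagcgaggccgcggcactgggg
Bnip3: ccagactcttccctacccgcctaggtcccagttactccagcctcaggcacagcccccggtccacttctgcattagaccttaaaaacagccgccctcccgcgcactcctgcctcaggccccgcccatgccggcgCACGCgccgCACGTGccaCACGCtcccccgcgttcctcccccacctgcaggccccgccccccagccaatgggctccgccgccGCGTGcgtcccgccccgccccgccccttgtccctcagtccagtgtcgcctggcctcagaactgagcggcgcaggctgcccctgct
Ankrd37: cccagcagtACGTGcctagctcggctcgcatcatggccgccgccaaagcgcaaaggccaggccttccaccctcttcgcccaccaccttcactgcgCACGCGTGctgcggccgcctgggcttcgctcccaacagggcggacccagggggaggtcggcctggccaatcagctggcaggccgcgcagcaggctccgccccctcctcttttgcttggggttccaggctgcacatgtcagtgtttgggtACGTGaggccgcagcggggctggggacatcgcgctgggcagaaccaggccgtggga

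The Pdk1 window shown held GCGTG at 2 places, starting at -78 and -2 from the start site, and no ACGTG. A second RefSeq start site of Pdk1 had neither core. Egln3 had a single ACGTG, starting at -229. The bases after its start site were not found in the early part of an annotated transcript of the gene, unlike those of the other windows shown. The same holds for the second Pdk1 start site, and for the Hif1a window and the second Vegfa start site described below. The Vegfa window shown had neither core, and a second RefSeq start site of Vegfa had 1 of each. Bnip3 held ACGTG on both strands of a palindrome at -108 and GCGTG 3 times, and Ankrd37 held each core 2 times, including ACGTG at -6. The Hif1a window held ACGTG 3 times, the Egln1 window had 1 of each core, and the Adm window had GCGTG 2 times. Of all 32851 RefSeq windows of this length, 19.6% held ACGTG, 32.4% held GCGTG and 43.8% held either, so a match is common and is a description of these letters only.

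Total counts ranged from 8860024 to 9260105 in db/db, from 11164775 to 11734886 in db/+ and from 9558955 to 11473420 in WT. Levels are given as CPM, read counts scaled to the normalised library size, in which 3 counts, the limit that a count of 0 allows, equal 0.238 to 0.412 CPM. This limit covers counting error only. Lepr was low in every library, at 2.05 to 9.47 CPM in db/db, 1.52 to 4.37 CPM in db/+ and 1.72 to 3.17 CPM in WT. The db mutation alters splicing of Lepr, so these counts are no check of genotype. The 9 beta cell markers summed to 91785 to 124874 CPM in db/db and 102778 to 114892 CPM in db/+. In WT their sum was 82467 to 120262 CPM. Most of each sum came from Ins1, Ins2 and Iapp, so it says little about the other markers. Taken singly, 6 of the 9 fell in db/db against WT, 1, Iapp, rose and 2 did not pass the test, where 19.9% of all tested genes fell and 21.8% rose. The overlap of the sums therefore does not show that these markers were equal between groups. Sex-linked genes differed between groups. Xist stood at 308 to 948 CPM in db/db, at most 0.506 CPM in db/+ and 0.722 to 596 CPM in WT, and 4 Y-linked genes summed to 0.108 to 176 CPM in db/db, 373 to 417 CPM in db/+ and 219 to 343 CPM in WT. The libraries db/db 1, WT 1 and WT 3 held both kinds of transcript. Genes that overlap ribosomal RNA summed to 554 to 217305 CPM in db/db, 207 to 224 CPM in db/+ and 18361 to 25167 CPM in WT. Genotype and sex makeup can therefore not be fully told apart, least of all between db/db and db/+. The titles of all db/db libraries and of WT 3 begin with H and those of the others with G, and the labels do not explain the letter. Between db/db and db/+ the letter follows genotype in full. A fit that adds the letter can estimate its effect only from WT 3 against WT 1 and WT 2. Whether the libraries come from separate or pooled animals is not stated, so p values measure the spread between libraries only.

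Within the set, levels per kilobase of exon put Vegfa first by a wide margin. It averaged 98.1 ± 32.5 CPM per kb over the 9 libraries (SD), against 19.1 ± 2.87 CPM per kb for Ndrg1 and 18.8 ± 2.13 CPM per kb for Hif1a, a pair that did not differ beyond its spread. Egln1 followed at 11.8 ± 0.796 CPM per kb. Bnip3 (9.26 ± 2.08 CPM per kb) and Epas1 (8.87 ± 3.60 CPM per kb) lay within each other's spread over all 9 libraries, as did Pdk1 (5.97 ± 2.72 CPM per kb) and Ankrd37 (5.71 ± 1.47 CPM per kb). Egln3 and Adm were close to the detection limit, at 0.373 ± 0.431 and 0.290 ± 0.171 CPM per kb. The order of these 4 depended on genotype. Pdk1 averaged 9.58 ± 0.424 CPM per kb in db/db, 4.22 ± 0.109 in db/+ and 4.13 ± 0.468 in WT. Epas1 averaged 11.8 ± 4.32 CPM per kb in db/db, 5.70 ± 0.561 in db/+ and 9.08 ± 2.14 in WT, beside 7.90 ± 2.19, 10.9 ± 2.36 and 9.01 ± 0.453 for Bnip3 in the same order of groups, so that Epas1 lay below Bnip3 in db/+.

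**Figure D1:**
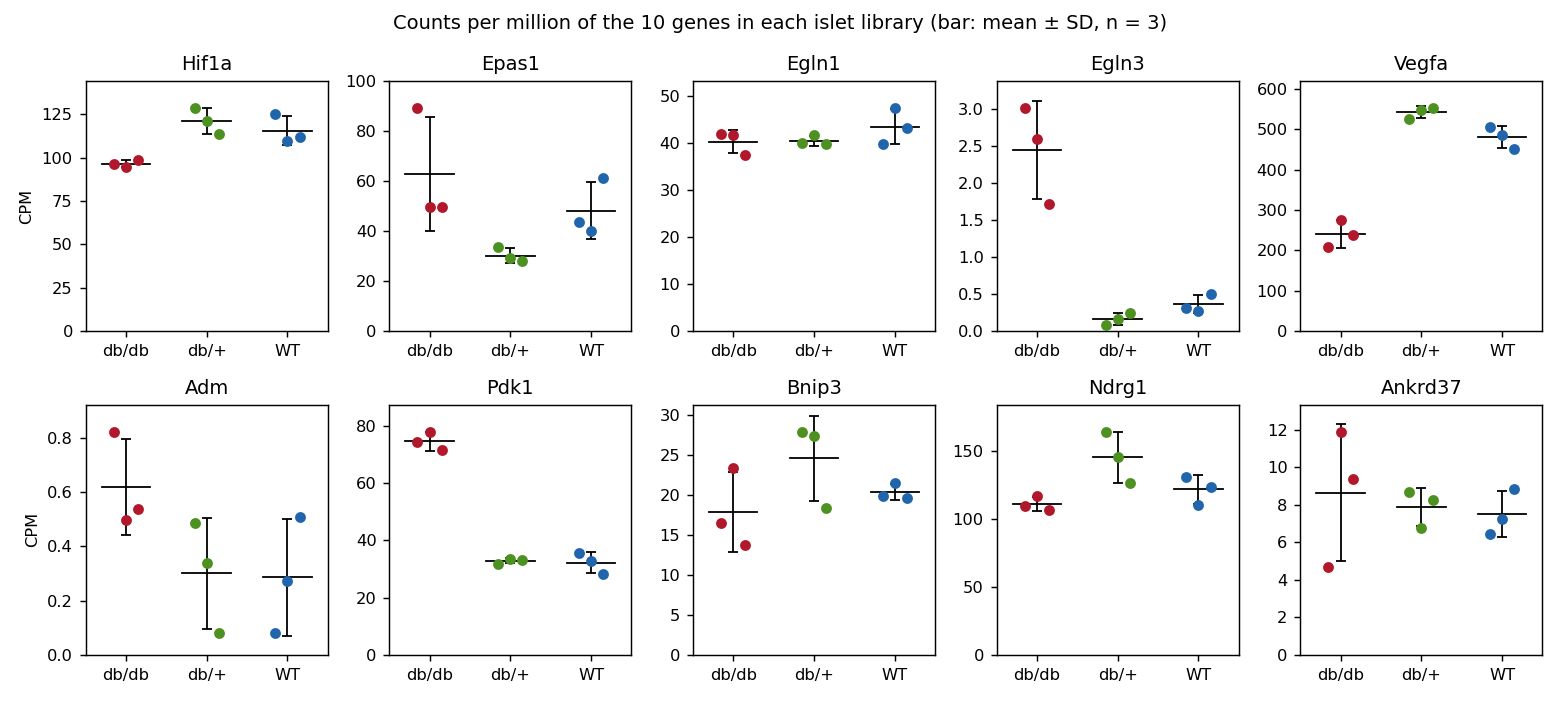
Level of each gene in CPM (vertical axes, from 0) in the 3 db/db, 3 db/+ and 3 WT libraries. Points are libraries and bars are mean ± SD. Vegfa and Hif1a lie lower, and Pdk1 and Egln3 higher, in all 3 db/db libraries than in the other 6, while Egln1 and Ankrd37 overlap between all groups.

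The hypoxia genes did not move together in db/db islets. Vegfa fell about as far as Pdk1 rose, Egln3, very low elsewhere, rose, Hif1a fell slightly, and the other tested genes did not pass the test against WT. Of the 9 tested genes 2 rose and 2 fell in db/db against WT, in a comparison in which 41.7% of all tested genes changed, 21.8% higher and 19.9% lower. Against db/+, 3 rose and 3 fell where 40.3% of all genes changed, 20.6% higher and 19.7% lower. In CPM, 2 of the 9 lay wholly above WT and 2 wholly below, where 26.2% and 25.3% of all genes did (51.5% together), and 3 lay wholly above db/+ and 3 below, where 26.2% and 26% did (52.2% together). Against WT these shares are near the background, and in both comparisons they include Egln3, which passed the filter on low counts only through its db/db libraries. The median log2 fold change of the 9 was -0.11 against WT and -0.01 against db/+, beside 0.01 over all genes in each comparison. Both comparisons use the same db/db libraries. Test values below are log2 fold changes ± SE and Benjamini-Hochberg adjusted p values from edgeR's quasi-likelihood test over all genes, with a threshold of 0.05.

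**Figure D2:**
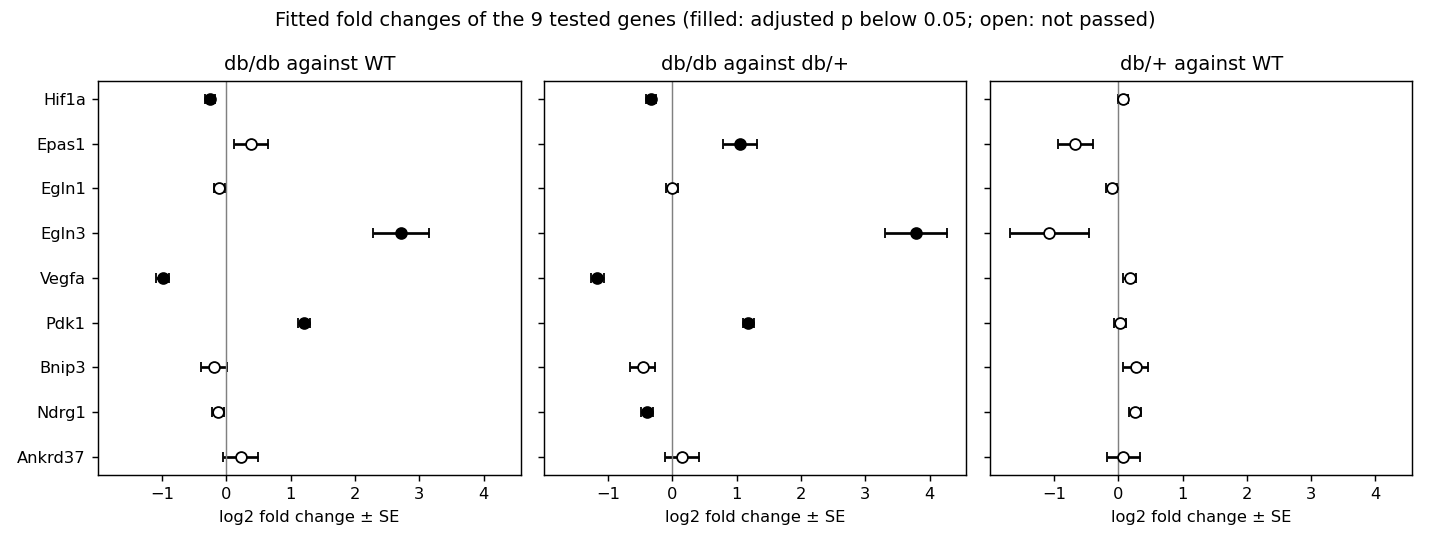
Log2 fold change ± SE (horizontal axes) of the 9 tested genes in each comparison. Filled circles passed the test and open circles did not. Vegfa lies near -1 and Pdk1 near 1 in both db/db comparisons, and no circle is filled for db/+ against WT.

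Hif1a, the most widely expressed alpha subunit gene, stood at 96.5, 94.5 and 98.5 CPM in db/db, at 129, 121 and 114 CPM in db/+, and at 125, 109 and 112 CPM in WT. All 3 db/db libraries lay below the other 6, by a narrow margin. The fall was -0.26 ± 0.08 against WT (adjusted p = 0.0153) and -0.33 ± 0.08 against db/+ (adjusted p = 0.00400). The call against WT ended without WT 1 (-0.20 ± 0.08, adjusted p = 0.0636) and in 6 of the other alternatives, over a range of adjusted p from 0.00260 to 0.220. Against db/+ it ended with the title letter as a covariate (-0.26 ± 0.14, adjusted p = 0.247) and with Y-linked counts as a covariate (-0.34 ± 0.13, adjusted p = 0.0577), both with a larger SE, the lowest adjusted p over the alternatives being 0.000772. At a fold of 0.836 against WT, this is the smallest change called among the set.

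Epas1, which encodes the HIF-2 alpha subunit and is typically high in endothelium, stood at 89.3, 49.5 and 49.7 CPM in db/db. It was at 33.6, 29.2 and 28.0 CPM in db/+, and at 43.6, 39.9 and 61.2 CPM in WT. The db/db libraries overlapped those of WT and lay above those of db/+, with db/db 1 well above all the rest. Against WT the difference of 0.38 ± 0.26 did not pass (adjusted p = 0.282), with a 95% interval from -0.23 to 0.99, and it was 0.046 ± 0.16 without db/db 1 (adjusted p = 0.844). With Y-linked counts as a covariate it passed (0.92 ± 0.21, adjusted p = 0.00899). Over the alternatives the difference from WT ranged from -0.36 to 0.92. Against db/+ Epas1 rose by a log2 fold change of 1.05 ± 0.27 (adjusted p = 0.0162). That call ended without db/+ 2 (1.02 ± 0.32, adjusted p = 0.0530) or db/+ 3 (0.99 ± 0.32, adjusted p = 0.0573), and with the title letter as a covariate (0.50 ± 0.42, adjusted p = 0.502), within a range over the alternatives from 6.65e-06 to 0.602.

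Endothelial markers were higher in db/db than in both other groups, whereas Epas1, with no covariate, passed only against db/+. The 13 markers summed to 643, 473 and 455 CPM in db/db, 377, 346 and 322 CPM in db/+, and to 377, 339 and 326 CPM in WT. Of the 12 tested, 8 rose and 0 fell in each db/db comparison, where 21.8% of all tested genes rose against WT and 20.6% against db/+. Pericyte and stellate markers summed to 800 to 2088 CPM in db/db, 256 to 387 CPM in db/+ and 264 to 380 CPM in WT, and 8 of 13 rose in each. Between db/+ and WT the endothelial sums overlapped, and every db/+ library lay below every WT library for Epas1. Among single endothelial markers, Cdh5 and Eng showed the same order, Tek and Erg the reverse, and no tested marker passed. WT 3 had the highest Epas1 and the lowest endothelial sum of its group. What lies behind these orders was not tested. With the endothelial mean as a covariate the Epas1 difference from db/+ was 0.33 ± 0.37 (adjusted p = 0.602, the highest of its alternatives). This mean was 4.89 to 5.38 log2 CPM in db/db and 4.42 to 4.65 log2 CPM in the other libraries, so its effect and that of genotype cannot be told apart. In bulk islets, fewer cells of a type and less RNA per cell cannot be told apart either.

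**Figure D3:**
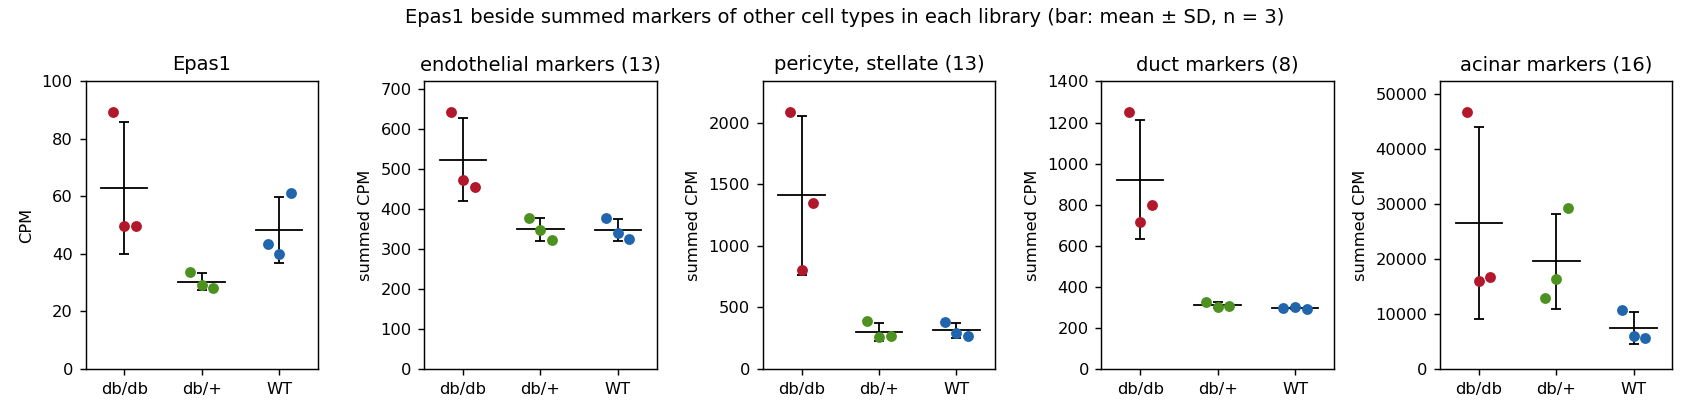
Epas1 in CPM and the summed CPM of marker genes of endothelium, pericytes and stellate cells, duct and acinar cells (vertical axes, from 0) in each library, with mean ± SD per group. The db/db libraries lie above all others for the endothelial, pericyte and stellate, and duct sums, and db/db 1 is highest in every panel.

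The prolyl hydroxylase genes split. Egln1, which encodes PHD2, the main oxygen sensor of the family, stood at 41.9, 41.6 and 37.5 CPM in db/db, at 40.1, 41.7 and 39.7 CPM in db/+, and at 39.9, 47.5 and 43.2 CPM in WT. The 3 groups overlapped, and neither difference passed. The log2 fold change was -0.11 ± 0.09 against WT (adjusted p = 0.339, 95% interval from -0.30 to 0.08) and -0.01 ± 0.09 against db/+ (adjusted p = 0.956, 95% interval from -0.20 to 0.18). Scaled by library totals alone, which shifted all genes by a median of -0.22, Egln1 was called lower than in WT (-0.34 ± 0.12, adjusted p = 0.0252).

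Egln3, which encodes PHD3 and is itself a HIF target, was barely detected outside db/db. It had 22, 21 and 16 counts in db/db (3.02, 2.60 and 1.72 CPM), 1, 2 and 3 counts in db/+, and 4, 3 and 5 counts in WT (0.317, 0.271 and 0.508 CPM). Every db/db library lay above the other 6. Summed over libraries, the rate in db/db was 6.69 times that in WT (exact 95% counting interval from 3.56 to 13.7) and 14.6 times that in db/+ (6.30 to 41.2). The fitted rise was 2.71 ± 0.44 against WT (adjusted p = 0.000255) and 3.79 ± 0.49 against db/+ (adjusted p = 3.90e-05), values that depend on the prior count at such depth. The call against WT ended with acinar markers as a covariate (2.09 ± 0.74, adjusted p = 0.0621), whose mean did not overlap between db/db and WT. The call against db/+ ended with the title letter as a covariate (3.03 ± 0.97, adjusted p = 0.0605). Since Egln3 passed the filter on low counts only through its db/db libraries, the fit was also made with no filter, where adjusted p was 7.21e-06 against WT and 6.13e-09 against db/+, the lowest over the alternatives.

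Among the secreted factors, Vegfa, which encodes the main growth factor for islet capillaries, showed the largest fall of the set. It stood at 208, 276 and 239 CPM in db/db, at 525, 548 and 553 CPM in db/+, and at 504, 485 and 451 CPM in WT. The highest db/db library was far below the lowest of the others. That lowest library was WT 3, which shares its title letter with db/db, and 1 library cannot separate the letter from genotype. The means were 241 ± 34.3 CPM in db/db, 542 ± 14.6 CPM in db/+ and 480.2 ± 27.0 CPM in WT (SD, n = 3 each). The fall was -0.99 ± 0.10 against WT (adjusted p = 3.78e-06) and -1.17 ± 0.10 against db/+ (adjusted p = 1.00e-06). It passed in all 25 alternatives of both comparisons, with values from -1.21 to -0.78 against WT and from -1.40 to -0.95 against db/+. Of the 9 beta cell markers, 6 fell and 1 rose in each db/db comparison, while their summed level overlapped between groups. Of the 6 alpha cell markers, 5 fell and 1 rose in each, with sums of 9225 to 10657 CPM in db/db, 16328 to 19737 CPM in db/+ and 10128 to 18487 CPM in WT. Over all tested genes 19.9% fell and 21.8% rose against WT, and 19.7% and 20.6% against db/+. The part of beta and alpha cells in the fall of Vegfa was not tested.

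Adm, which encodes the vasodilator peptide adrenomedullin, had 6, 4 and 5 counts in db/db, 6, 4 and 1 in db/+, and 1, 3 and 5 in WT. The summed rate in db/db was 2.27 times that in WT (exact 95% counting interval from 0.929 to 5.87) and 2.02 times that in db/+ (0.866 to 4.86). A difference was not detectable at this depth. With no filter on low counts Adm did not pass against WT (1.09 ± 0.76, adjusted p = 0.336) or db/+ (0.97 ± 0.73, adjusted p = 0.399).

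Pdk1 rose and had the smallest adjusted p of the set in both db/db comparisons. The gene encodes pyruvate dehydrogenase kinase 1, which inhibits the enzyme complex that feeds pyruvate into the citric acid cycle. Its level stood at 74.2, 77.9 and 71.3 CPM in db/db, at 31.9, 33.5 and 33.0 CPM in db/+, and at 35.5, 32.6 and 28.2 CPM in WT. The db/db libraries lay more than 2-fold above every other library. WT 3, whose title letter is that of db/db, was the lowest of all 9, but 1 library cannot separate the letter from genotype. Pdk1 averaged 74.5 ± 3.30 CPM in db/db, 32.8 ± 0.847 CPM in db/+ and 32.1 ± 3.64 CPM in WT. The rise was 1.21 ± 0.09 against WT (adjusted p = 3.22e-07) and 1.18 ± 0.09 against db/+ (adjusted p = 3.76e-07), and it passed in all 25 alternatives of both comparisons.

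Bnip3, which encodes a mitochondrial outer membrane protein that marks mitochondria for removal, stood at 16.5, 23.4 and 13.8 CPM in db/db, at 28.0, 27.4 and 18.4 CPM in db/+, and at 19.9, 21.6 and 19.7 CPM in WT. The groups overlapped, and the differences of -0.19 ± 0.20 against WT (adjusted p = 0.466) and -0.46 ± 0.20 against db/+ (adjusted p = 0.0823) did not pass. Bnip3 was called lower than in db/+ without db/db 2 (-0.70 ± 0.18, adjusted p = 0.00835) or db/+ 3 (-0.64 ± 0.18, adjusted p = 0.0150). With all libraries, it was also called when scaled by library totals alone (-0.70 ± 0.17, adjusted p = 0.00240) and with no filter on low counts (-0.49 ± 0.14, adjusted p = 0.00548). Over the alternatives the adjusted p against db/+ ranged from 0.00240 to 0.549. A RefSeq pseudogene, Gm18258, lies within the Bnip3 span and may share reads with it.

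Ndrg1, a cytoplasmic stress-response gene induced by hypoxia in many tissues, stood at 109, 117 and 107 CPM in db/db, at 164, 145 and 127 CPM in db/+, and at 131, 111 and 124 CPM in WT. It overlapped between db/db and WT (-0.13 ± 0.10, adjusted p = 0.284) and lay below every db/+ library (-0.39 ± 0.10, adjusted p = 0.00563). Scaled by library totals alone, which shifted all genes by a median of -0.22, Ndrg1 was called lower than in WT (-0.36 ± 0.13, adjusted p = 0.0238). The call against db/+ ended with the title letter (-0.42 ± 0.18, adjusted p = 0.148) or Y-linked counts (-0.41 ± 0.16, adjusted p = 0.0692) as a covariate, where the fold was no smaller and the SE larger, the lowest adjusted p over the alternatives being 6.37e-05. Ankrd37, a small ankyrin-repeat gene with a strong hypoxia response in cell lines, stood at 4.67, 11.9 and 9.38 CPM in db/db, at 8.65, 6.75 and 8.24 CPM in db/+, and at 6.43, 7.22 and 8.84 CPM in WT. The db/db libraries held both the lowest and the highest values, and the differences of 0.22 ± 0.27 against WT (adjusted p = 0.537) and 0.14 ± 0.26 against db/+ (adjusted p = 0.703) did not pass. Ankrd37 was called higher than in WT with the endothelial mean as a covariate (1.15 ± 0.36, adjusted p = 0.0372), whose effect and that of genotype cannot be told apart. Its 3' end overlaps the abundant gene Ufsp2 over 51 bases, and the strand setting of the counting is not known, so some counts may be shared.

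**Figure D4:**
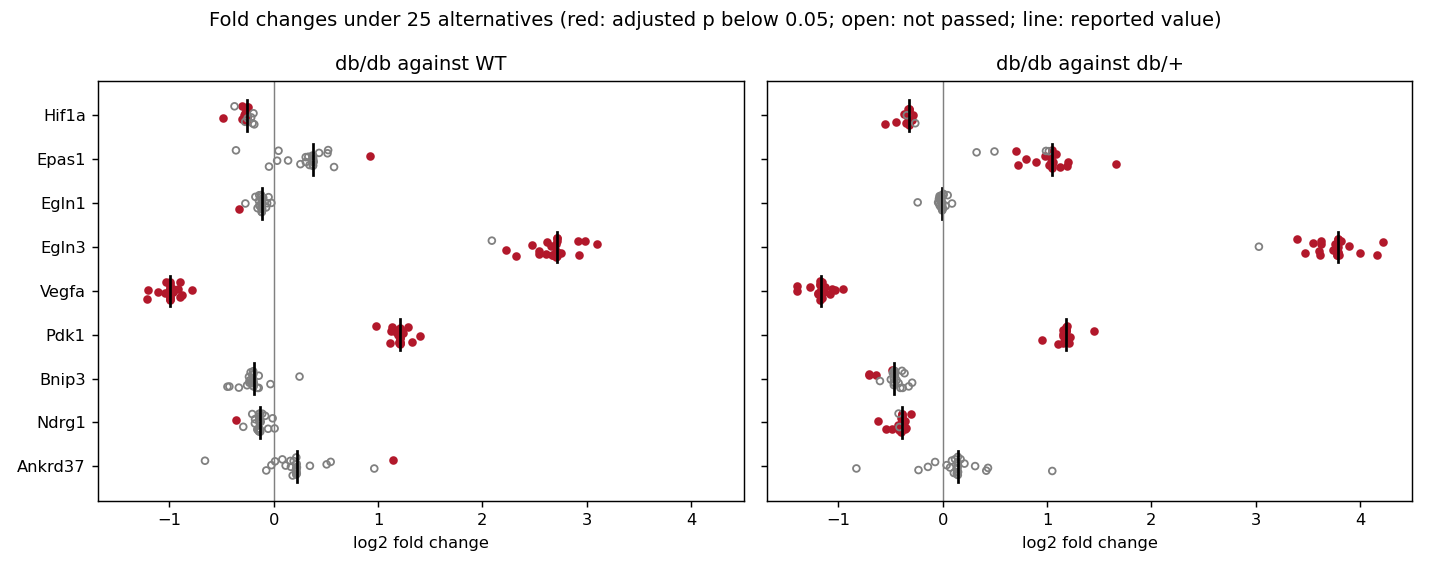
Log2 fold change (horizontal axes) of each tested gene under 25 alternative settings, with the reported value as a black line. Red points passed the test and open points did not. All points of Vegfa and Pdk1 are red, whereas Epas1, Bnip3, Ndrg1 and Ankrd37 have points on both sides of 0 against WT.

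No member changed between db/+ and WT by edgeR, where 1.43% of all tested genes did, 0.606% higher and 0.82% lower. At an unadjusted p below 0.05 there were 1 higher and 1 lower, and DESeq2 called 1 and limma-voom 0. The 2 were Ndrg1 (0.26 ± 0.10, unadjusted p = 0.0183, adjusted p = 0.210) and Epas1 (-0.67 ± 0.27, unadjusted p = 0.0376, adjusted p = 0.285). Epas1 was called without db/db 1 (-0.67 ± 0.14, adjusted p = 0.0304) and by DESeq2 (-0.68 ± 0.21, adjusted p = 0.0299, the lowest of a range up to 0.624). In CPM, 2 members, Epas1 and Egln3, lay wholly below WT and 1, Vegfa, wholly above, where 10.4% and 12.1% of all genes did (22.5% together). For Egln3, db/+ 3 and WT 2 both had 3 counts and were set apart by library scaling only (0.245 and 0.271 CPM). Its summed rate in db/+ was 0.459 times that in WT (exact 95% counting interval from 0.141 to 1.32). The Vegfa difference of 0.17 ± 0.10 did not pass (adjusted p = 0.419). Pdk1 differed by 0.03 ± 0.09 (adjusted p = 0.928, 95% interval from -0.17 to 0.23).

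Among partners and regulators of HIF, Cited2 and Ep300 had the largest falls against WT. Of 14 tested, 4 fell and 0 rose in db/db against WT (higher at an unadjusted p below 0.05: 1, by DESeq2 0, by limma-voom 0), and 2 fell and 0 rose against db/+ (higher: 1, 0 and 0). Over all tested genes 19.9% fell and 21.8% rose against WT, and 19.7% and 20.6% against db/+. The median log2 fold change of the partners and regulators was -0.09 against WT. Cited2, whose product competes with HIF alpha subunits for their coactivators, fell against both groups and stood at 26.0 ± 2.38 CPM in db/db, 58.2 ± 7.49 CPM in db/+ and 65.0 ± 3.62 CPM in WT. Its log2 fold change was -1.32 ± 0.11 against WT (adjusted p = 6.95e-07) and -1.16 ± 0.11 against db/+ (adjusted p = 2.23e-06). Ep300, which encodes such a coactivator, fell against WT (-0.73 ± 0.14, adjusted p = 0.00173) at 81.9 ± 10.4 CPM in db/db, 88.2 ± 7.37 CPM in db/+ and 135.7 ± 26.9 CPM in WT, and did not pass against db/+ (-0.11 ± 0.14, adjusted p = 0.577). Arnt did not pass against WT (0.07 ± 0.08, adjusted p = 0.505), and Vhl was lower than in db/+ (-0.35 ± 0.10, adjusted p = 0.0160) but did not pass against WT (-0.22 ± 0.10, adjusted p = 0.105). Arnt and Vhl were chosen after their values were seen. Without db/db 1 the count against WT was 3 fallen, and with db/db 2, db/db 3, db/+ 2 or db/+ 3 left out it was 2. Over all tested genes 3115 fell without db/db 1, and 2682 to 3244 in the latter fits.

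Of 18 glycolytic HIF targets, 7 rose and 6 fell in db/db against WT, where 21.8% and 19.9% of all tested genes did, and 5 rose and 7 fell against db/+, where 20.6% and 19.7% did. Their median was -0.07 against WT. Slc16a3, among the risen, averaged 0.595 ± 0.457 CPM in WT and 0.600 ± 0.240 CPM in db/+. It passed the filter on low counts only through its db/db libraries. Pfkfb3, whose product makes the main activator of phosphofructokinase, rose to 25.2 ± 3.97 CPM in db/db, against 5.57 ± 0.906 CPM in db/+ and 9.41 ± 0.931 CPM in WT (1.42 ± 0.16 against WT, adjusted p = 9.68e-06). Hk2, a hexokinase gene, rose as well (1.53 ± 0.37, adjusted p = 0.00443) and stood at 4.18 ± 1.06 CPM in db/db, 2.15 ± 0.790 CPM in db/+ and 1.41 ± 0.589 CPM in WT. Eno2, an enolase of neurons and endocrine cells, fell to 52.3 ± 2.90 CPM in db/db, against 79.9 ± 11.3 CPM in WT (-0.61 ± 0.10, adjusted p = 0.000190). Gapdh fell to 9.38 ± 0.966 CPM, against 36.5 ± 10.2 CPM in WT (-1.96 ± 0.27, adjusted p = 0.000418), a value that is uncertain because Gapdh has many processed pseudogenes that can take its reads. Without db/db 1 the counts against WT were 5 higher and 6 lower, and with acinar markers as a covariate they were 1 and 3. Over all tested genes they were 3468 and 3115 without db/db 1, and 1893 and 1512 with the covariate.

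Of 28 other reported HIF targets tested, outside glycolysis, 11 rose and 2 fell in db/db against WT, beside 21.8% and 19.9% of all tested genes. Against db/+ 11 rose and 3 fell, beside 20.6% and 19.7%. The medians were 0.35 and 0.24, and the list was not tested as a group. The risen genes include Lox (at most 0.485 CPM outside db/db) and Edn1 (at most 0.793 CPM). They also include Stc2, at 0.558 ± 0.465 CPM in WT and 0.735 ± 0.362 CPM in db/+. Like Egln3, these genes passed the filter on low counts only through their db/db libraries, so their calls lean on the group where they are high. Gbe1, the glycogen branching enzyme gene, rose to 45.1 ± 4.33 CPM in db/db, against 27.2 ± 0.295 CPM in db/+ and 22.9 ± 0.746 CPM in WT (0.98 ± 0.09 against WT, adjusted p = 2.81e-06). P4ha2, which encodes a subunit of the collagen prolyl hydroxylase, rose to 71.6 ± 2.69 CPM, against 47.4 ± 7.31 CPM in db/+ and 37.8 ± 1.67 CPM in WT (0.92 ± 0.10, adjusted p = 9.79e-06). Tfrc, the transferrin receptor gene for iron uptake, fell to 53.1 ± 5.49 CPM in db/db, against 176 ± 7.43 CPM in db/+ and 171 ± 6.20 CPM in WT (-1.69 ± 0.08, adjusted p = 6.04e-09). Kdm3a, a histone demethylase gene, fell less (-0.26 ± 0.10, adjusted p = 0.0406). Markers of non-endocrine cells were higher in the same libraries. Besides the pericyte and stellate markers given above, duct markers summed to 714 to 1252 CPM in db/db, 301 to 325 CPM in db/+ and 294 to 303 CPM in WT, and 7 of 8 rose in each db/db comparison. Acinar markers summed to 16079 to 46822 CPM in db/db, 12942 to 29361 CPM in db/+ and 5583 to 10781 CPM in WT, with 9 of 16 risen against WT and 1 against db/+. Macrophage markers summed to 168 to 286 CPM in db/db, 102 to 128 CPM in db/+ and 102 to 144 CPM in WT, with 4 of 11 risen against WT and 6 against db/+. The part of these cells in the counts was not tested. The acinar mean used as a covariate was 8.50 to 9.80 log2 CPM in db/db and 6.93 to 7.75 log2 CPM in WT. Against WT its effect and that of genotype can therefore not be told apart, as with the endothelial mean. Of these other HIF targets, 10 rose and 1 fell against WT without db/db 1, where 3468 rose and 3115 fell over all tested genes.

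In the list of VEGF and adrenomedullin relatives and receptors, 6 of 13 tested genes rose and 1 fell in db/db against WT, beside 21.8% and 19.9% of all tested genes. Against db/+ 7 rose and 1 fell, beside 20.6% and 19.7%. Adm2, among those risen against WT, averaged 0.389 ± 0.361 CPM in WT and 0.718 ± 0.387 CPM in db/+. It passed the filter on low counts only through its db/db libraries. Vegfb, a VEGF-family gene, fell with Vegfa, to 5.60 ± 1.10 CPM in db/db, against 12.4 ± 0.871 CPM in db/+ and 12.6 ± 1.02 CPM in WT (-1.17 ± 0.16 against WT, adjusted p = 7.23e-05). Nrp2, a VEGF co-receptor gene, rose to 28.3 ± 6.91 CPM, against 16.2 ± 0.420 CPM in db/+ and 16.9 ± 0.137 CPM in WT (0.73 ± 0.14, adjusted p = 0.00111). Ramp1, which encodes a partner of the calcitonin-family receptors, rose by a log2 fold change of 0.89 ± 0.22 (adjusted p = 0.00597). Kdr, the main VEGF receptor of endothelium, stood at 162 ± 22.9 CPM in db/db, 173 ± 14.4 CPM in db/+ and 183 ± 6.37 CPM in WT and did not pass (-0.18 ± 0.10 against WT, adjusted p = 0.142). Of the 12 tested endothelial markers, 8 rose and 4 did not pass against WT either. Kdr was chosen after its values were seen. Without db/db 1 the counts against WT were 6 risen and 4 fallen, with acinar markers as a covariate 0 and 1, and with endothelial markers as a covariate 0 and 4. Over all tested genes the counts were 3468 and 3115 without db/db 1. They were 1893 and 1512 with the acinar covariate, and 1779 and 1313 with the endothelial covariate.

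Of 10 genes of the pyruvate dehydrogenase complex and its control, 2 rose and 1 fell in db/db against WT, where 41.7% of all tested genes changed, and 2 rose and 3 fell against db/+, where 40.3% did. Pdk3, another kinase of the complex, rose to 21.7 ± 1.30 CPM in db/db, against 14.7 ± 0.642 CPM in db/+ and 13.2 ± 1.20 CPM in WT (0.71 ± 0.12, adjusted p = 0.000287). Pdp2, a phosphatase that reverses the action of these kinases, fell to 12.1 ± 0.498 CPM, against 28.1 ± 3.87 CPM in db/+ and 31.5 ± 0.486 CPM in WT (-1.39 ± 0.12, adjusted p = 1.10e-06). Pdha1, a catalytic subunit of the complex, rose by a log2 fold change of 0.39 ± 0.07 (adjusted p = 0.000526). Pdk2 (-0.02 ± 0.15, adjusted p = 0.944) and Pdk4 (-0.64 ± 0.29, adjusted p = 0.117) did not pass and were chosen after their values were seen. In the NDRG family, Ndrg3 fell against WT (-0.43 ± 0.07, adjusted p = 0.000407), while Ndrg2 and Ndrg4 did not pass.

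**Figure D5:**
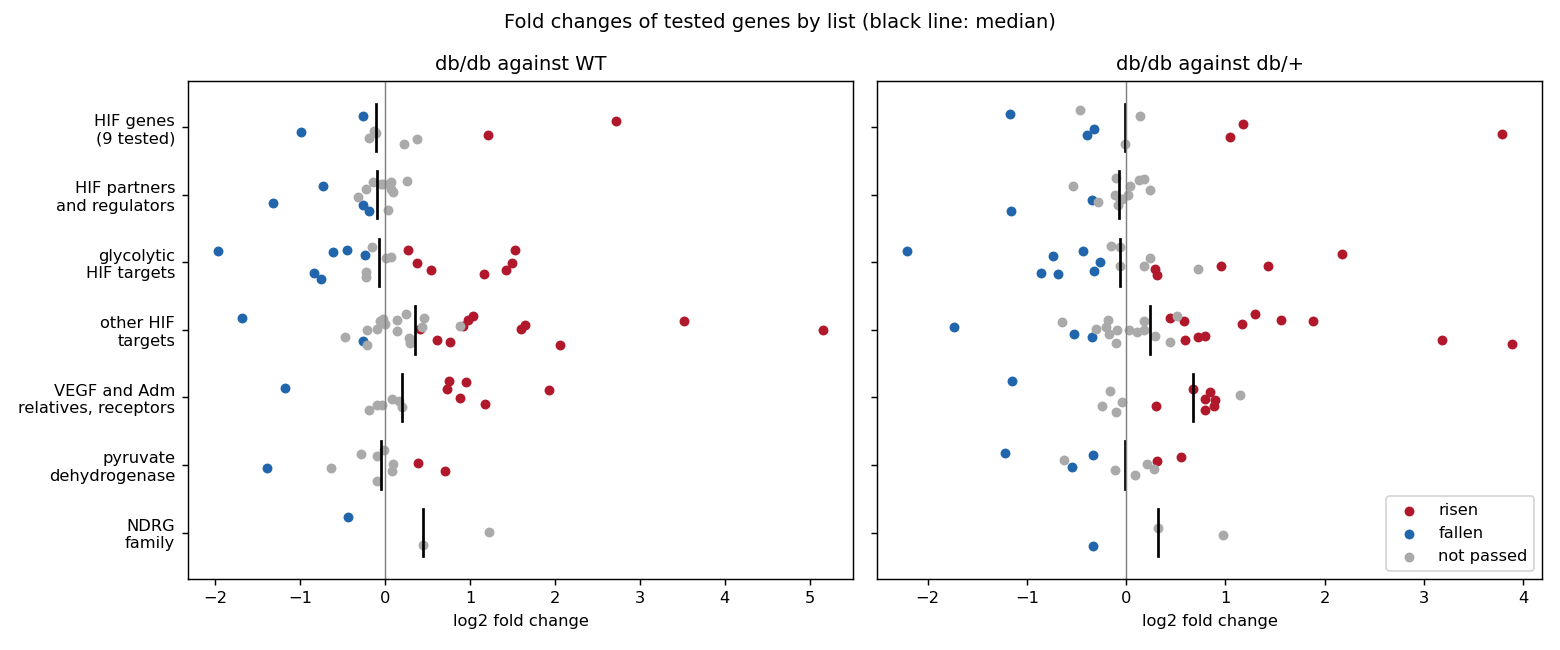
Log2 fold change (horizontal axes) of each tested gene in 7 lists, for db/db against WT and against db/+. Red points rose, blue points fell, grey points did not pass the test, and black lines are medians. Only the other HIF targets, the VEGF and adrenomedullin list and the 3 NDRG genes have medians above 0.1.

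Over the 9 libraries, the genes whose log2 CPM followed Pdk1 most closely among 9006 genes with at least 10 CPM were Adam22 (Pearson r = 0.995), Lpgat1 (r = 0.992) and Ptpn3 (r = 0.991). Adam22 averaged 269 ± 4.16 CPM in db/db, 168 ± 5.20 CPM in db/+ and 162 ± 7.34 CPM in WT. The genes most opposed to Pdk1 were Wdr78 (r = -0.993), AC134468.3 (r = -0.992) and Arc (r = -0.992). The libraries fall into db/db and the rest, so these values mostly describe the step between genotypes, and no p is given.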

How the data were processed

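The authors deposited read counts per gene symbol for 9 islet libraries in 1 table, as whole numbers without normalisation. The submitters' processing notes name bcl2fastq 2.20.0.422, TopHat2 2.0.14 and the build mm10. Per the labels' protocols, RNA was taken with Trizol and libraries were made with a ribosomal RNA removal kit. Which program, annotation and strand setting produced the counts is not given in the sources used here. The table has 1 column that matches no sample, which was not used. Genes were kept by filterByExpr, scaled with TMM factors and fitted with 1 term per group to all 9 libraries in edgeR 4.0.16 (R 4.3.3, robust dispersion, 6 residual degrees of freedom, biological coefficient of variation 0.129). Contrasts between groups used its two-sided quasi-likelihood F-test. SE was derived from the fold change and F. CPM per kb used exon lengths from an annotation of another assembly. Alternatives used DESeq2 1.42.0, limma 3.58.1, other scalings, filters, covariates and each library left out. The fit was tested on simulated data.

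The members, lists and tests were chosen with earlier results of these data known. The naming rule took all members, Lepr, the 2 risen and 2 fallen genes with the smallest adjusted p against WT in each other list, and the 3 genes most and least correlated with the member of smallest adjusted p. Replicate numbers follow sample order and were not used as pairs. Plots used matplotlib 3.10.9.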

Additional observations from a re-analysis of the deposited data

How the results depend on the processing

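Across 25 alternatives, 206 of 225 fold changes of the tested members kept direction and side of the threshold in db/db against WT, 202 of 225 in db/db against db/+ and 215 of 223 in db/+ against WT. The count of changed members in db/db against WT was 4, became 2 with acinar markers as a covariate, and was 3 to 4 with a library left out. In db/db against db/+ it was 6, became 2 with the title letter as a covariate, and was 5 to 7 with a library left out. In db/+ against WT it was 0, became 1 by DESeq2 and with Y-linked counts as a covariate, and was 0 to 1 with a library left out. In these cases the cause was not tested.

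Values that changed sign passed under no setting that turned them. In db/db against WT, Epas1 was -0.045 with the acinar and -0.36 with the endothelial covariate, Bnip3 0.25 with the acinar covariate, Ndrg1 0.0086 without the 3 libraries that held both Xist and Y-linked counts, and Ankrd37 -0.022 with the title letter, -0.66 with Y-linked counts and -0.071 to 0.51 with a library left out. In db/db against db/+, Egln1 was 0.0080 with the title letter, 0.0031 with the acinar covariate, 0.090 with Y-linked counts, 0.029 with the length offset and -0.030 to 0.048 with a library left out, and Ankrd37 was -0.073 by library totals, -0.23 with the title letter, -0.83 with Y-linked counts and -0.14 to 0.43 with a library left out. In db/+ against WT, Ankrd37 was -0.024 with the length offset and -0.024 to 0.21 with a library left out, and Pdk1 was -0.054 with the title letter, -0.043 with the acinar covariate and -0.054 to 0.11 with a library left out.

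Library totals alone shifted all genes by a median of -0.22 in both db/db comparisons and moved the split of changed genes to 2176 higher and 5317 lower against WT, where it was 3670 and 3348, and to 2011 higher and 5265 lower against db/+, where it was 3459 and 3314. The 7018 genes changed against WT became 3405 with the acinar, 3092 with the endothelial and 4425 with the title letter covariate, and 4449 without the 3 libraries named above. The 6773 against db/+ became 2033 with the title letter, 3085 with the endothelial and 4433 with the Y-linked covariate. The 240 in db/+ against WT ranged from 23 to 768. No paired analysis was possible because the labels give no replicate numbers. Depth limits Egln3 and Adm.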
